A study of Mus musculus with 6 samples.

Results

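The Eph receptors and ephrins described here are 8 genes, found by their symbols in the deposited expression tables, of 48440 genes in all. They are the receptors *Ephb2*, *Ephb3*, *Ephb4*, *Ephb6* and *Epha2* and the ligands *Efnb1*, *Efnb2* and *Efna1*, chosen by name for their place in Paneth cell (PC) positioning and adenoma spread. RNA-seq was performed on small intestinal adenomas from mice with and without PC depletion, and the question was which transcripts differ when PCs are depleted. The 6 libraries came from 3 ApcMin, PCdel samples (libraries QC3, QC8 and QC10) and 3 ApcMin samples (QC4, QC5 and QC6), 1 library per sample, and all came from mice on a C57BL/6 background older than 42 days.

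All 6 samples carried the *Apc* Min allele, a truncating mutation after which polyps form. By the methods, PCdel mice had a Defa4-Cre knock-in, made in 129/svJ embryonic stem cells, and Rosa26 iDTA/WT, so that Cre from the *Defa4* locus switched on diphtheria toxin A in cells of the PC lineage. The controls had Rosa26 iDTA/WT without Cre. The model therefore depletes a lineage in the intestine, and not in the adenoma alone. The samples are whole adenoma tissue, in which fewer cells of a type and less RNA per cell cannot be told apart. The paper states that littermates served as controls and that mice of both genotypes were housed together in tumor experiments. The labels do not say which samples share a litter, a cage or a day of collection.

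Eph receptors form the largest family of receptor tyrosine kinases, and their ephrin ligands are held on the membrane of neighbouring cells, so that signalling needs cell contact and runs into both cells. A-type ephrins are anchored by a lipid tail and B-type ephrins cross the membrane, and A-type receptors mostly bind A-type ephrins and B-type receptors B-type ephrins. In the intestinal crypt, EphB2 and EphB3 are Wnt target genes held high near the crypt base, whereas ephrin-B1 and ephrin-B2 are higher toward the villus. Mice without EphB3 have PCs scattered along the crypt, and loss of EphB activity in *Apc* mutant mice is known to speed tumor progression.

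The sequence before an annotated start is given for 3 of these genes. They are the gene with the largest difference between the genotypes (*Efna1*) and the crypt receptors known as Wnt targets (*Ephb2* and *Ephb3*). The sequences are from RefSeq (GRCm38.p6) and run 5′ to 3′ on the strand of the gene. Each stops before the first exon of an annotated transcript, and capitals mark GGGCGG, a GC box, or its reverse complement. The sequences cover chr3:89279646-89279895 (minus strand) for *Efna1*, chr4:136836013-136836262 (minus strand) for *Ephb2* and chr16:21204545-21204754 (plus strand) for *Ephb3*. Another coding transcript of *Efna1* starts upstream, at 89281142, so the sequence printed for *Efna1* lies within the gene.
Efna1: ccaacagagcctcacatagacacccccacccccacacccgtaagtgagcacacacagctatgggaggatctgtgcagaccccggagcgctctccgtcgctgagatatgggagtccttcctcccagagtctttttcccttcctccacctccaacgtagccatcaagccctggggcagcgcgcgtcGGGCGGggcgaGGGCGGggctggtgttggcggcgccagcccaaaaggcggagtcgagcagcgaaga
Ephb2: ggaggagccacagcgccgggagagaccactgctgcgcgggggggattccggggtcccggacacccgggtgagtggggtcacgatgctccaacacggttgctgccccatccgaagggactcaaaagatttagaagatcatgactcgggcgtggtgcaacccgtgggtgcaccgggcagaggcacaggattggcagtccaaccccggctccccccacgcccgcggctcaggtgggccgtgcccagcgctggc
Ephb3: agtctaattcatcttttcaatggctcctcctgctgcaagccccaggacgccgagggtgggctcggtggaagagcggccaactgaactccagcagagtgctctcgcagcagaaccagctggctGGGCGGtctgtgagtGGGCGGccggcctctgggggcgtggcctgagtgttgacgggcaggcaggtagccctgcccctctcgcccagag
The RefSeq table gave 9 windows for the 8 genes, each from 250 bases before to 50 bases after a start. The motif CTTTGAT, bound by TCF factors, or its reverse complement ATCAAAG was in 0 of the 9 windows and in 3.73% of 32851 windows of all genes. The motif GGGCGG, chosen after the sequences were seen, or its reverse complement CCGCCC was in 7 of the 9 windows, which belong to 6 genes (*Efna1*, *Efnb2*, *Epha2*, *Ephb3*, *Ephb4* and *Ephb6*), and in 35.7% of all windows. These matches describe the letters in the windows only.

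Each library held between 5.407 and 5.876 gigabases of aligned sequence, and between 22671 and 23430 genes above 0. Of 15 PC markers, 14 had a log2 fold change below 0 in PCdel adenomas, whereas 63.1% of all genes tested had one above 0. The genotypes did not overlap in 3 of the 15, against 7.54% of all genes (1.54% lower in PCdel). In limma, 6 of the 15 were lower at an unadjusted p under 0.05, against 0.681% of all genes. The count at that threshold lay between 3 and 9 under other settings. QC8 (-0.01) and the control QC4 (-0.01) had the same mean log2 level of the list against its 6-library mean. *Lyz1* (lysozyme) was at 1672, 2229 and 2281 FPKM in QC4, QC5 and QC6 and at 950.3, 1148 and 1082 FPKM in QC3, QC8 and QC10, and *Defa21* (an α-defensin) had a log2 fold change of -2.98. *Defa24*, another α-defensin, was higher in QC8 (2569 FPKM) than in QC4 (2013 FPKM). *Lyz1* and *Defa21* did not overlap between the genotypes, and neither passed the adjusted threshold (limma adjusted p = 0.979 and 0.309). Library QC6 stood apart among the controls. Its enterocyte markers were 0.79 above their 6-library mean on the log2 scale and its Wnt target genes stood at -0.44, whereas the other 5 libraries lay between -0.25 and 0.03 and between -0.10 and 0.22. Y-linked transcripts were high in QC6 and QC3, 1 library of each genotype. Epithelial markers such as *Krt8*, at 1756 FPKM or more in every library, were abundant.

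All 8 genes were expressed and all 8 passed the filter of a mean of at least 1 FPKM, as did 14240 genes in total. FPKM counts fragments per kilobase of a gene's transcripts relative to the size of the library, and it allows levels to be compared between genes. In limma with Benjamini-Hochberg adjustment over 14240 genes, 0 of the 8 passed an adjusted p of 0.05, against 0.0140% of all genes tested (2 genes, *Hist2h2aa1* and *Rab43*). At an unadjusted p under 0.05, 1 of the 8 was higher in ApcMin, PCdel adenomas, the ligand gene *Efna1*, against 2.70% of all genes in that direction, and 0 were lower, against 0.681% (3.38% in either direction). The libraries of the genotypes did not overlap in 1 of the 8 genes, again *Efna1*, against 7.54% of all genes (6.00% higher and 1.54% lower in PCdel). The log2 fold change was above 0 for 7 of the 8 genes, with a median of 0.15, against 63.1% of all genes and a median of 0.04.

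**Figure D1:**
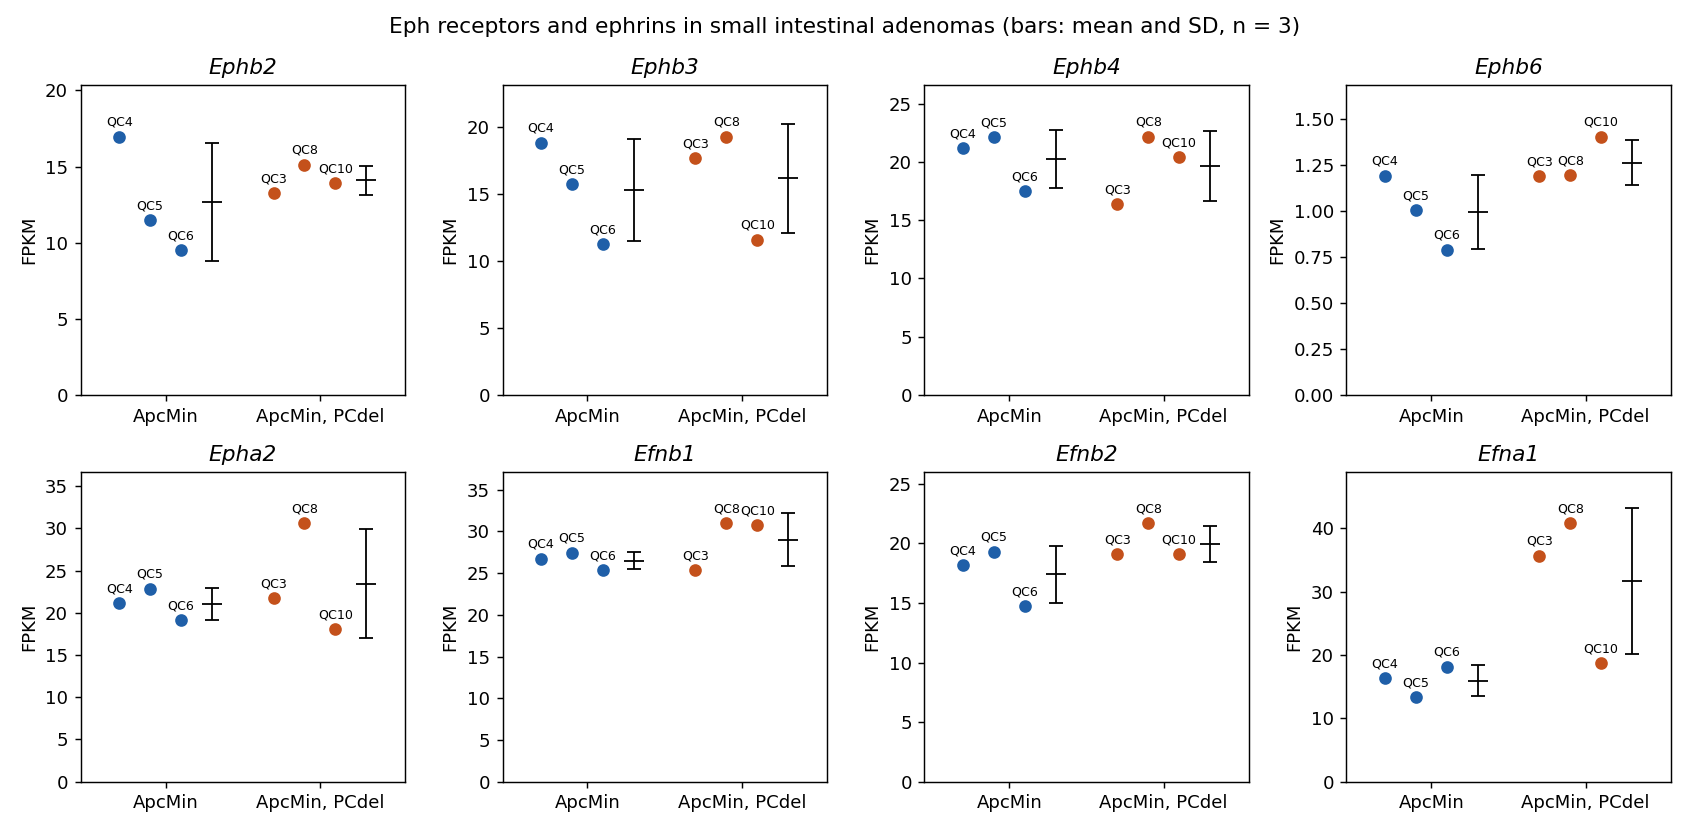
FPKM of the 8 genes (y axis, a separate linear scale from 0 for each gene) in each library, with ApcMin in blue, ApcMin, PCdel in orange, and the mean and SD of 3 libraries drawn beside the points. The PCdel libraries of *Efna1* lie between 18.8 and 40.8 FPKM, all above the ApcMin libraries, and the libraries of the other 7 genes overlap.

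*Ephb2* (ENSMUSG00000028664.14, chromosome 4, 136647539 to 136835988 in GRCm38, minus strand) encodes a receptor of the crypt base. It was at 17.0, 11.5 and 9.51 FPKM in the ApcMin libraries QC4, QC5 and QC6 and at 13.3, 15.1 and 13.9 FPKM in the PCdel libraries QC3, QC8 and QC10. The ApcMin libraries held both the highest and the 2 lowest values, and the PCdel libraries lay between them. The means were 12.6 ± 3.87 FPKM (SD, n = 3) in ApcMin and 14.1 ± 0.946 FPKM (SD, n = 3) in PCdel adenomas, and they did not differ beyond this spread (log2 fold change 0.18, standard error 0.20, 95% interval -0.29 to 0.66, exact two-sided permutation p = 0.6). Without QC4, the highest ApcMin library, the log2 fold change was 0.40 (limma, unadjusted p = 0.0264), whereas it was 0.01 without QC6 and between 0.13 and 0.22 without any of the other 4 libraries.

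*Ephb3* (ENSMUSG00000005958.14, chromosome 16, 21204755 to 21223305, plus strand) encodes the EphB receptor of PCs and their neighbours. It was at 18.8, 15.7 and 11.2 FPKM in QC4, QC5 and QC6, and at 17.7, 19.3 and 11.6 FPKM in QC3, QC8 and QC10. The lowest library of each genotype was close to 11 FPKM and the highest close to 19 FPKM, so the genotypes covered nearly the same range. The means were 15.3 ± 3.81 FPKM (SD, n = 3) and 16.2 ± 4.06 FPKM (SD, n = 3), a log2 fold change of 0.08 (standard error 0.24, 95% interval -0.50 to 0.66, exact permutation p = 0.7). In the fold scale the interval ran from 0.71 to 1.58, so neither a fall nor a rise of that size could be told from no change with 3 libraries a group. The direction turned without QC8 (-0.06) and without QC6 (-0.12).

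*Ephb4* (ENSMUSG00000029710.15, chromosome 5, 137350109 to 137378669, plus strand), a receptor known from venous endothelium, was at 21.2, 22.1 and 17.5 FPKM in QC4, QC5 and QC6 and at 16.4, 22.2 and 20.4 FPKM in QC3, QC8 and QC10. It was the only one of the 8 genes with a lower mean in PCdel adenomas (19.6 ± 2.98 against 20.3 ± 2.46 FPKM, SD, n = 3 each), and the libraries overlapped over nearly their whole range. The log2 fold change of -0.05 (standard error 0.15, 95% interval -0.40 to 0.31, exact permutation p = 0.7) changed sign with TPM in place of FPKM (0.01). *Ephb6* (ENSMUSG00000029869.7, chromosome 6, 41605482 to 41620509, plus strand) encodes a receptor whose kinase domain is inactive. It was at 1.19, 1.01 and 0.790 FPKM in QC4, QC5 and QC6 and at 1.19, 1.2 and 1.41 FPKM in QC3, QC8 and QC10. Its level was higher than that of only 1.9% of the genes tested, and the genotypes met at 1.19 FPKM. The log2 fold change was 0.18 (standard error 0.12, 95% interval -0.11 to 0.48, exact permutation p = 0.2), a value that log2(FPKM + 1) understates at so low a level.

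*Epha2* (ENSMUSG00000006445.3, chromosome 4, 141301240 to 141329384, plus strand) encodes an epithelial receptor for which ephrin-A1 is the best known ligand, and lies 4.5 Mb from *Ephb2*. It was at 21.1, 22.9 and 19.1 FPKM in QC4, QC5 and QC6 and at 21.7, 30.6 and 18.1 FPKM in QC3, QC8 and QC10. QC8 stood above the other 5 libraries, and QC10 of the same genotype was the lowest. The means were 21.0 ± 1.88 FPKM (SD, n = 3) in ApcMin and 23.5 ± 6.45 FPKM (SD, n = 3) in PCdel adenomas (log2 fold change 0.12, standard error 0.19, 95% interval -0.34 to 0.58, exact permutation p = 0.8). Without QC8 the log2 fold change was -0.08.

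*Efnb1* (ENSMUSG00000031217.8, chromosome X, 99136130 to 99148991, plus strand) encodes ephrin-B1, a ligand of EphB2 and EphB3. It was at 26.7, 27.4 and 25.3 FPKM in QC4, QC5 and QC6 and at 25.3, 31.0 and 30.8 FPKM in QC3, QC8 and QC10. The ApcMin libraries lay within a narrow range, which QC3 shared, and QC8 and QC10 lay above it. The means were 26.5 ± 1.07 FPKM (SD, n = 3) and 29.0 ± 3.19 FPKM (SD, n = 3), a log2 fold change of 0.12 (standard error 0.11, 95% interval -0.15 to 0.39, exact permutation p = 0.3). Its coefficient of variation over the 6 libraries, 9.12%, was the lowest of the 8 genes.

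*Efnb2* (ENSMUSG00000001300.16, chromosome 8, 8617434 to 8661242, minus strand) encodes ephrin-B2, the ligand of EphB4 in arterial endothelium and of EphB2 and EphB3 in the epithelium. It was at 18.2, 19.3 and 14.7 FPKM in QC4, QC5 and QC6 and at 19.1, 21.7 and 19.1 FPKM in QC3, QC8 and QC10. QC6 was the lowest and QC8 the highest, and QC5 lay among the PCdel libraries. The means were 17.4 ± 2.40 FPKM (SD, n = 3) and 20.0 ± 1.5 FPKM (SD, n = 3), with a log2 fold change of 0.19 (standard error 0.13, 95% interval -0.11 to 0.50, exact permutation p = 0.3). *Efnb2* lies 12.4 Mb from *Defa21*, on the chromosome of the α-defensin genes.

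*Efna1* (ENSMUSG00000027954.9, chromosome 3, 89271733 to 89281142, minus strand) encodes ephrin-A1, an A-type ligand first known as a gene induced by tumor necrosis factor in endothelial cells. It was at 16.3, 13.3 and 18.1 FPKM in QC4, QC5 and QC6. In the PCdel libraries it was at 35.7 FPKM in QC3, 40.8 FPKM in QC8 and 18.8 FPKM in QC10. QC3 and QC8 stood well above the controls, while QC10 was only just above QC6, the highest control. The mean was 15.9 ± 2.45 FPKM (SD, n = 3) in ApcMin and 31.7 ± 11.5 FPKM (SD, n = 3) in PCdel adenomas, 199.3% of the control mean. The log2 fold change was 0.89 (standard error 0.29, 95% interval 0.20 to 1.58), which ranked 178 of 14240 genes by limma's p (unadjusted p = 0.0184, adjusted p = 1.0). An exact permutation of library labels (two-sided) gave p = 0.1, and a design of 3 against 3 cannot go lower. *Efna1* therefore did not pass a corrected test.

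The value of *Efna1* rested on few libraries. In limma fits, the log2 fold change was 0.77 without QC5 (unadjusted p = 0.0583), 0.77 without QC3 (unadjusted p = 0.058) and 0.68 without QC8 (unadjusted p = 0.0573), and in each 0 of the 8 genes kept an unadjusted p under 0.05. Without QC10 it was 1.22 (limma, unadjusted p = 0.00039, adjusted p = 0.428). In the 16 alternatives the log2 fold change lay between 0.68 and 1.22, the unadjusted p was under 0.05 in 13, and the adjusted p lay between 0.329 and 1.0. Its coefficient of variation, 48.0%, was the highest of the 8 genes.

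**Figure D2:**
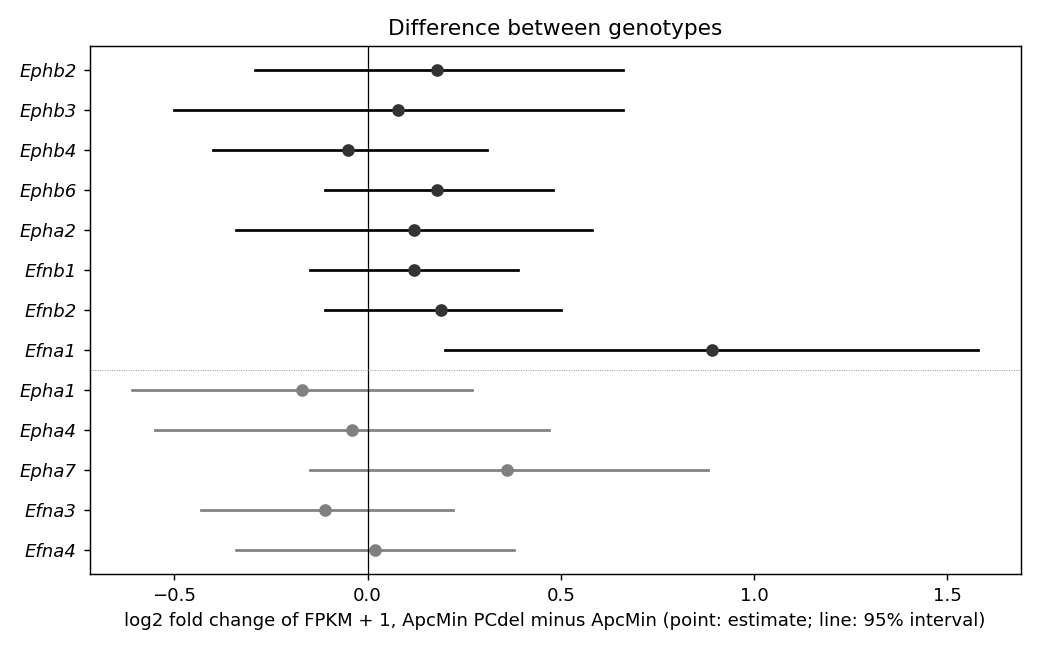
Log2 fold change of FPKM + 1 between ApcMin, PCdel and ApcMin adenomas (x axis) for the 8 genes (black, upper part) and the 5 other family members that passed the filter (grey, lower part), with points for the estimate and lines for the 95% interval from limma. The interval of *Efna1*, 0.20 to 1.58, is the only one that leaves out 0, before any adjustment over 14240 genes.

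The neighbours of *Efna1* had log2 fold changes near 0. A gap of 32.8 kb separates *Efna1* from *Efna3*, and a gap of 10.4 kb separates *Efna3* from *Efna4*, on the same strand. *Efna3* and *Efna4* encode A-type ephrins. *Efna4* was at 10.1, 10.2 and 7.55 FPKM in QC4, QC5 and QC6 and at 10.9, 8.61 and 8.68 FPKM in QC3, QC8 and QC10 (log2 fold change 0.02, 95% interval -0.34 to 0.38). *Efna3* was at 0.922, 1.05 and 1.53 FPKM and at 0.943, 1.03 and 1.03 FPKM in the same order, with the highest value in QC6 (log2 fold change -0.11, 95% interval -0.43 to 0.22). The difference between the log2 fold changes of these genes was not tested. The receptor *Epha2* was highest in QC8 like *Efna1*, but in QC3, the other library with high *Efna1*, it was within the ApcMin range.

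**Figure D3:**
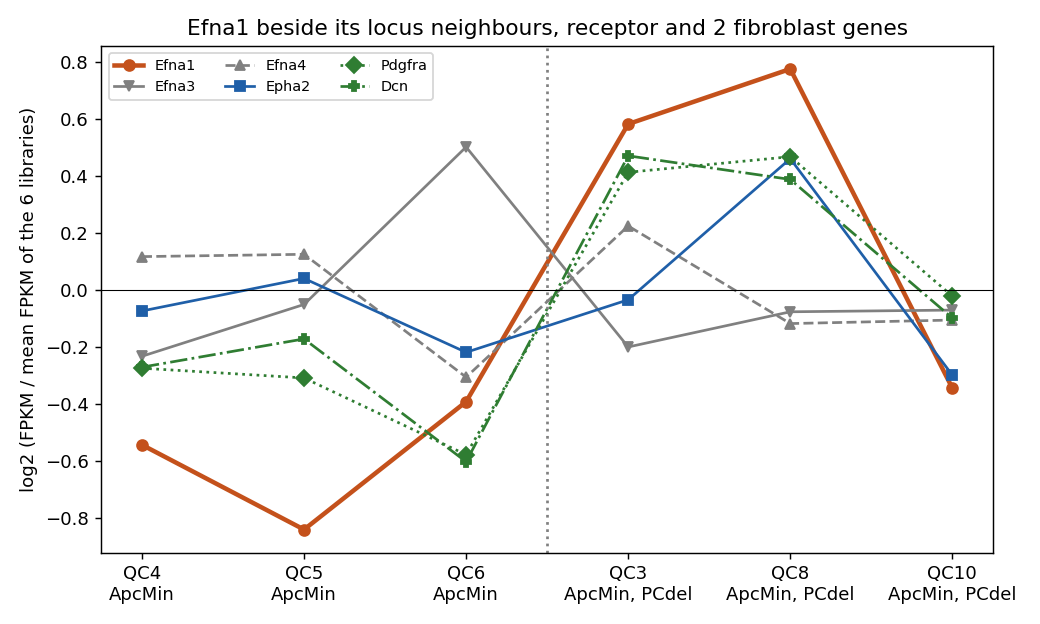
Log2 of FPKM over the mean of the 6 libraries (y axis) in each library (x axis) for *Efna1* (orange), its neighbours *Efna3* and *Efna4* (grey), the receptor gene *Epha2* (blue) and the fibroblast genes *Pdgfra* and *Dcn* (green). *Efna1*, *Pdgfra* and *Dcn* are high in QC3 and QC8 and nearer their mean or below it in QC10, and *Efna3* is highest in QC6.

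Fibroblast markers were also higher in the libraries with high *Efna1*. All 8 of 8 fibroblast markers had a log2 fold change above 0 in PCdel adenomas (median 0.29), against 63.1% of all genes, and 3 of 8 had an unadjusted p under 0.05, against 2.70% of all genes, with 0 past the adjusted threshold in limma. The count of 3 fell to 1 without QC6, QC3 or QC8, and was 5 without QC10. Their summed level was 193.2 to 287.1 FPKM in ApcMin and 244.3 to 392.7 FPKM in PCdel libraries, and none was at 0. *Dcn* (decorin, a matrix proteoglycan) was at 103.2, 110.5 and 81.9 FPKM in QC4, QC5 and QC6 and at 172.5, 162.9 and 116.3 FPKM in QC3, QC8 and QC10. *Pdgfra* (a growth factor receptor of fibroblasts, named after its values were seen) was at 9.14, 8.92 and 7.40 FPKM and at 14.7, 15.3 and 10.9 FPKM. QC10 was the lowest PCdel library for both, as for *Efna1*. These are the 2 of 8 fibroblast markers whose genotypes did not overlap, against 7.54% of all genes (6.00% higher in PCdel). *Col3a1* (a collagen), the other abundant marker, was at 57.0, 62.7 and 44.1 FPKM and at 80.5, 73.0 and 48.2 FPKM. *Pdpn* (podoplanin), the third marker under the unadjusted threshold, was at 4.46, 3.76 and 3.67 FPKM and at 7.67, 6.70 and 4.27 FPKM. For both, QC10 lay among the controls. All 7 of 7 smooth muscle markers also had a log2 fold change above 0 (median 0.30; summed level 212.4 to 348.8 FPKM in ApcMin and 316.1 to 452.6 FPKM in PCdel libraries). Of 12 endothelial markers, 8 were higher and 4 lower (median 0.05; 76.3 to 129.4 FPKM and 107.4 to 141.2 FPKM). Of 8 myeloid markers, 7 were higher and 1 lower (median 0.15; 194.5 to 221.9 FPKM and 160.0 to 183.3 FPKM). The genotypes did not overlap in 2 of the 8, in opposite directions, against 7.54% of all genes (6.00% higher and 1.54% lower in PCdel). *Lyz2*, which made up most of the myeloid sum, was lower in PCdel, at 161.1, 197.6 and 189.3 FPKM and at 144.3, 145.3 and 138.1 FPKM in the same order. *Adgre1*, named because its genotypes did not overlap, was higher, at 2.26, 1.64 and 2.33 FPKM and at 2.68, 3.35 and 2.91 FPKM. The part of any of these cell types in the *Efna1* value was not tested. The 6 general epithelial markers were near even, with 4 of 6 higher (median 0.04). Of 14 enterocyte markers, 3 were higher and 11 lower (median -0.16), and in limma 0 had an unadjusted p under 0.05. The mean level of the enterocyte markers was highest in the control QC6 (0.79).

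Among the receptors and ligands, *Efnb1* had the highest mean level over the 6 libraries as FPKM (27.8), followed by *Efna1* (23.8), *Epha2* (22.2), *Ephb4* (19.9), *Efnb2* (18.7), *Ephb3* (15.7), *Ephb2* (13.4) and *Ephb6* (1.13). Only *Ephb2* over *Ephb6* held in 6 of 6 libraries. Each other gene was above the next in between 3 and 5 of the 6 libraries, so those neighbours in the order do not stand apart beyond their spread. As FPKM, *Efna1* was above *Epha2* in 0 of 3 ApcMin libraries and in 3 of 3 PCdel libraries. In QC10 the values of these genes were close (18.8 and 18.1 FPKM).

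This order depends on which annotated transcripts the reads were assigned to. The tables also give the mean read depth over all exons of a gene, and its ratio to FPKM gives the mean length of the transcripts that were counted. For *Efnb1* that length was between 1067 and 1078 bases in every library, although its coding transcript has 3258 bases. The other annotated transcript is non-coding, has 807 bases and shares 76.0% of them with exons of the coding transcript. With these lengths, the coding transcript took between 10.6% and 11.1% of the *Efnb1* FPKM, which is 2.96, 2.93 and 2.74 FPKM in QC4, QC5 and QC6 and 2.69, 3.31 and 3.26 FPKM in QC3, QC8 and QC10. The genotypes overlapped on this measure too (2.88 ± 0.119 and 3.09 ± 0.346 FPKM, SD, n = 3 each, exact permutation p = 0.4). For *Epha2*, whose coding transcript has 3913 bases, the mean length allowed that transcript between 36.9% and 46.5% of the FPKM. For *Ephb2* the mean length was 9449 bases in QC5 and between 6553 and 7735 bases in the other 5 libraries, which lies between its coding transcripts of 4804 and 10902 bases. For *Efna1* it was 1529 bases in QC5 and between 1473 and 1480 bases elsewhere, close to the 1480 bases of its coding transcript that starts at the base after the promoter sequence printed above.

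Mean depth over exons, divided by the gigabases aligned in the library, does not depend on that assignment, and was added after the values were seen. It does depend on the annotation, because it is averaged over all annotated exons, also those that the counted transcripts lack. For *Efnb2* the merged exons have 6855 bases and the mean transcript length in QC4 was 4785 bases. For *Ephb4* these lengths were 4640 and 4299 bases, so the order of genes by depth can also reflect the annotation. On this scale *Efna1* had the highest mean (19.3), then *Ephb4* (18.5), *Efnb2* (13.003), *Ephb3* (10.004), *Epha2* (9.90), *Efnb1* (8.61), *Ephb2* (7.89) and *Ephb6* (1.13). *Efna1* was above *Ephb4* in only 2 of 6 libraries and in 0 of 3 ApcMin libraries, where *Ephb4* had the higher mean (18.9). *Efnb1* moved from the first to the sixth place. *Ephb4* over *Efnb2*, *Efnb2* over *Ephb3* and *Ephb2* over *Ephb6* held in 6 of 6 libraries. *Efna1* was at 13.2, 11.1 and 14.6 in QC4, QC5 and QC6 and at 28.8, 33.0 and 15.1 in QC3, QC8 and QC10 on the same scale, with no overlap (exact permutation p = 0.1). *Epha2* was at 9.45, 10.2 and 8.49 and at 9.64, 13.7 and 7.94 in the same order, below *Efna1* in every library of both genotypes. The change of place between *Efna1* and *Epha2* was therefore seen as FPKM only. *Ephb2* was at 9.58, 8.60 and 5.24 and at 8.14, 8.57 and 7.23 per gigabase, and its means of 7.81 ± 2.27 and 7.98 ± 0.682 (SD, n = 3 each) were close (exact permutation p = 1.0).

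**Figure D4:**
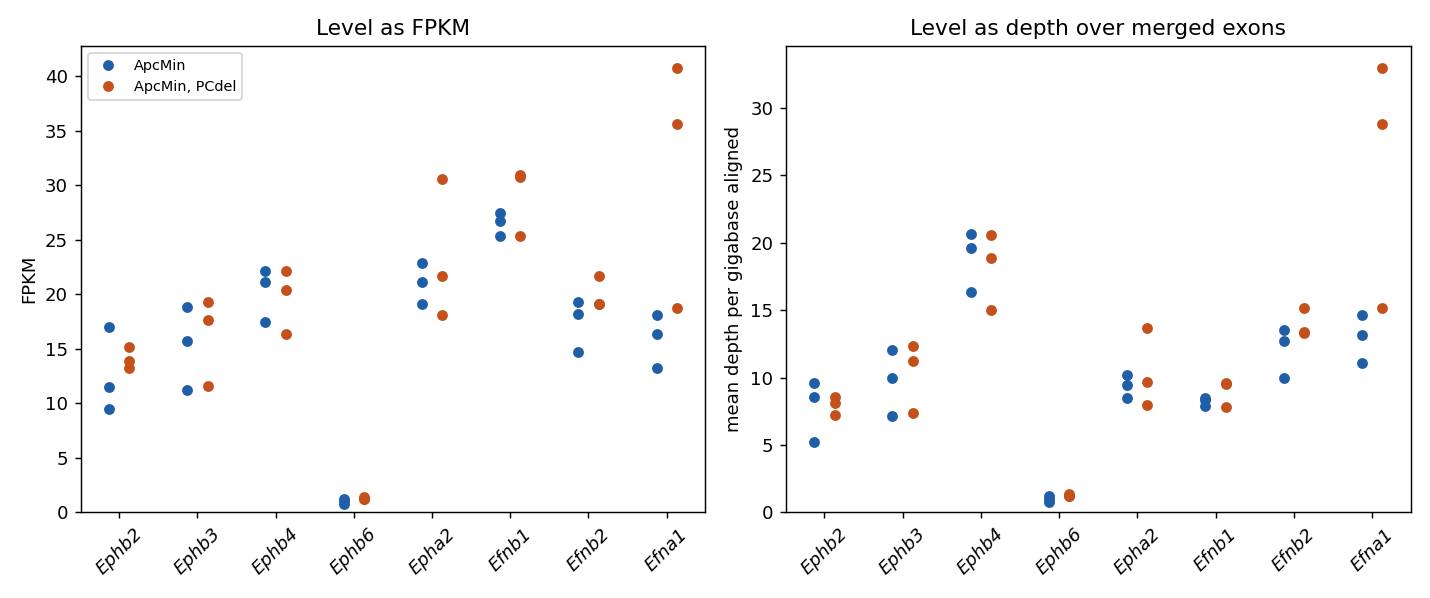
Level of the 8 genes in each library as FPKM (left) and as mean depth over merged exons per gigabase aligned (right), both on linear axes from 0, with ApcMin in blue and ApcMin, PCdel in orange. *Efnb1* is the highest by mean FPKM (27.8) but sixth by depth (8.61), whereas *Efna1* has 2 PCdel libraries above all other points of the right panel.

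The balance of crypt receptors to their ligands was described by the ratio of summed *Ephb2* and *Ephb3* to summed *Efnb1* and *Efnb2* in each library. As FPKM it was 0.796, 0.582 and 0.518 in QC4, QC5 and QC6 and 0.696, 0.653 and 0.511 in QC3, QC8 and QC10. The lowest values, in QC6 and QC10, belong to different genotypes, and the PCdel libraries lay almost within the ApcMin range. On the log2 scale the means were -0.69 ± 0.32 and -0.70 ± 0.24 (SD, n = 3 each), a difference of -0.02. By depth per gigabase the ratio ran from 0.692 to 1.03 in ApcMin and from 0.640 to 0.916 in PCdel libraries. Of the *Efnb1* FPKM in the ligand sum, only between 10.6% and 11.1% was assigned to the coding transcript. The FPKM ratio therefore does not show whether coding transcripts of the ligands exceeded those of the receptors.

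Of the other 14 Eph receptors and ephrins, 5 passed the filter, and 2 (*Epha8* and *Epha10*) were listed at 0 in every library. In limma, 0 of the 5 passed the adjusted threshold and 0 had an unadjusted p under 0.05 (1, *Epha7*, without QC4). *Epha1*, the most abundant, was at 20.4, 20.9 and 31.9 FPKM in QC4, QC5 and QC6 and at 23.2, 20.1 and 20.3 FPKM in QC3, QC8 and QC10 (log2 fold change -0.17). Its highest value was in QC6, the control library with high enterocyte markers. *Epha7*, a low receptor gene, was at 1.69, 1.05 and 0.637 FPKM and at 2.06, 1.81 and 1.22 FPKM in the same order (log2 fold change 0.36). *Epha4* had a log2 fold change of -0.04.

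Of 38 genes that act with Eph receptors (such as proteases, phosphatases, adaptors and kinases), 35 were tested. In limma, 25 were higher and 10 lower in PCdel adenomas (median 0.04), beside 63.1% of all genes higher, with the same median of 0.04. Of the 35, 0 passed the adjusted threshold and 0 had an unadjusted p under 0.05. The count of 0 at the unadjusted threshold became 4 with array quality weights, 2 without QC6 and 1 without QC4 or without QC10. The smallest p belonged to *Adam10*, which encodes a protease that sheds ephrins. It was at 60.5, 32.4 and 47.0 FPKM in QC4, QC5 and QC6 and at 63.1, 60.7 and 58.9 FPKM in QC3, QC8 and QC10, so QC4 lay among the PCdel libraries. *Itsn1* (intersectin, a Cdc42 exchange factor that works with EphB2; log2 fold change 0.21) and *Ptpn13* (a phosphatase that binds B-type ephrins; 0.33) followed.

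Of 20 Wnt target genes, the group to which *Ephb2* and *Ephb3* are known to belong, 14 were higher and 6 lower (median 0.18). Of all genes tested, 63.1% were higher, with a median of 0.04. In limma, 0 of the 20 Wnt target genes passed the adjusted threshold. The only one with an unadjusted p under 0.05 was *Znrf3*, a ubiquitin ligase that removes Wnt receptors, at 5.25, 4.69 and 4.23 FPKM in QC4, QC5 and QC6 and 5.67, 6.10 and 5.80 FPKM in QC3, QC8 and QC10 (log2 fold change 0.26). Every PCdel library was above every control for *Znrf3*, unlike for *Ephb2* and *Ephb3*. This 1 of 20 stands beside 3.38% of all genes, and beside 7.54% for no overlap. The count was 0 without QC5, QC6, QC8 or QC10 and at a minimum mean FPKM of 5, and 2 without QC3 or with a Y-linked covariate. *Apcdd1* (0.39) and *Tcf7* (0.22) came next. The mean level of the list was lowest in QC6, where *Ephb2* and *Ephb3* were also at their lowest.

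As a mean over the 8 genes, the log2 level against the 6-library mean was lowest in QC6 (-0.27) and highest in QC8 (0.30). The other 4 libraries lay between -0.08 and 0.07. Single genes departed from this mean. *Efna1* in QC6 (18.1 FPKM) was at its highest control value, *Ephb4* was lowest in QC3 (16.4 FPKM) and *Epha2* in QC10 (18.1 FPKM). *Ephb2* was highest in QC4 (17.0 FPKM) and *Ephb6* in QC10 (1.41 FPKM). Of the 28 pairs among the 8 genes, 27 had a Pearson's r above 0 over the 6 libraries, a description of points that share a library and the same scaling. *Ephb2* with *Ephb3* gave r = 0.67 (Spearman's coefficient 0.77), *Efnb1* with *Efnb2* 0.68 (Spearman's coefficient 0.89), and *Epha2* with *Efna1* 0.60 (Spearman's coefficient 0.20). The exception was *Ephb4* with *Efna1* (r = -0.27).

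The genes whose pattern over the 6 libraries was most like each of these genes, out of 14239, were named by the highest r of log2(FPKM + 1). For *Efna1* these were *Dio2* (a deiodinase; r = 0.993, Spearman's coefficient 0.94) and *6530402F18Rik* (r = 0.991, Spearman's coefficient 1.0). *Dio2* was at 1.54, 1.03 and 1.74 FPKM in QC4, QC5 and QC6 and at 3.83, 5.14 and 1.59 FPKM in QC3, QC8 and QC10, with QC10 among the controls. For *Epha2* they were *Dennd4a* (r = 0.996) and *Areg* (amphiregulin, a ligand of the EGF receptor; r = 0.992). *Areg* was at 16.9, 18.0 and 16.2 FPKM and at 17.7, 24.9 and 14.6 FPKM, with the same high library, QC8, and the same low library, QC10. For *Ephb2* they were *Gm6180* and *Tmem176a*, for *Ephb3* *Man2b1* and *Ctdsp2*, for *Ephb4* *Cox20* and *Faap24*, for *Ephb6* *Gm15487* and *Rhoa*, for *Efnb1* *Mtif3* and *Mtmr6*, and for *Efnb2* *1810013L24Rik* and *Nlrc5*. With 6 libraries, between 23 and 182 genes had an r above 0.95 with each of the 8 genes, so these names carry little weight.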

How the data were processed

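Libraries of the 6 samples were prepared with the TruSeq RNA kit and sequenced on an Illumina instrument. The authors deposited FPKM and TPM of each gene, scaled for length and library size, and its mean read coverage, which is unscaled. The methods name CLC Genomics Workbench for alignment and statistics, whether it made these tables is not stated, the annotation is not given in the sources used here, and the positions match GRCm38. Entries of the same gene were summed. Genotypes were compared as log2(FPKM + 1) with limma 3.58.1 in R 4.3.3 (lmFit, eBayes with trend) where the mean FPKM was at least 1, with Benjamini-Hochberg adjustment over all genes tested and a threshold of 0.05, and single genes by exact permutation (SciPy 1.17.1). The p-values measure the spread between these samples, which may be technical. Gigabases aligned and mean transcript lengths came from the ratio of coverage to FPKM, and in 583 of 613 genes with a pair of GENCODE transcripts (95.1%) the mean length lay between their lengths. The files hold no counts, so counting intervals and detection limits were not derived. The genes and lists were chosen with earlier results of these data known. The genes named were the 8 genes, other family members that were tested, signalling partners and Wnt target genes with an unadjusted p under 0.05 or the 3 smallest p, the 2 genes most like each of the 8, the 2 most abundant markers of each cell type beside a result, genotype checks, and genes past the adjusted threshold. The pseudocount, filter, scaling, trend, weights, a Y-linked covariate, the scale and the libraries included were varied.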

Additional observations from a re-analysis of the deposited data

How the results depend on the processing

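Under all 16 alternatives, 0 of the 8 genes passed an adjusted p of 0.05. Leaving out a library gave between 0 and 2 of them with an unadjusted p under 0.05. Of 127 log2 fold changes of these genes under alternatives, 6 changed sign: *Ephb4* with TPM (0.01), and values with a library left out, where *Ephb4* ranged from -0.14 to 0.07, *Ephb3* from -0.12 to 0.29 and *Epha2* from -0.08 to 0.29. *Ephb6* was not tested at a minimum mean FPKM of 5. The genes past the adjusted threshold, 2 as reported, were 1 with no filter and 1 with median centring, and between 1 and 5 with a library left out. The genes with an unadjusted p under 0.05, 481 as reported, were 976 with no filter, 260 at a minimum mean FPKM of 5 and 1270 with array quality weights, and between 358 and 820 with a library left out. The minimum tests fewer genes and no filter more, and otherwise the cause was not tested. Of these genes 384 were higher and 97 lower as reported, against 261 and 182 with quantile normalization, 277 and 174 after median centring, 806 and 464 under array quality weights and 487 and 333 without QC6. TPM moved the median of all genes to 0.10. Of 224 counts over the 14 other gene lists, 184 stayed within 1.5 times the reported count, but most of these lists had a reported count of 0. For the lists with a count above 0, fewer of the 16 alternatives stayed within that limit. These were 10 for PC markers, 9 for Wnt target genes, 12 for fibroblast markers and 9 for myeloid markers. The difference in the log2 receptor to ligand ratio ranged from -0.15 to 0.16 with a library left out. No paired analysis was possible because the labels do not record which samples share a litter or a cage. Depth, between 5.407 and 5.876 gigabases, varied little, and 3 libraries a group limit what can be told apart.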
